A study of Mus musculus with 20 samples.

Results

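The genes described here are 10 feedback inhibitors of MAP kinase signalling: the phosphatases Dusp1, Dusp4, Dusp5, Dusp6 and Dusp14, the Sprouty genes Spry1, Spry2 and Spry4, and the Sprouty-related genes Spred1 and Spred2. They were taken by name, and all 10 were among the 12988 genes of the count table. RNA was sequenced from the adBNST, the anterodorsal part of a forebrain nucleus of the extended amygdala (BNST, bed nucleus of the stria terminalis), in male and female mice aged 7 to 9 weeks at the start. Female control and male control mice received control conditions, and female stressed and male stressed mice received chronic variable mild stress (CVMS), a changing schedule of minor stressors, for 6 weeks. Tissue was taken 1 hour after a last stressor of wet bedding in stressed mice, and ketamine anesthesia preceded dissection in all groups. Each group held 15 mice whose tissue was pooled by 3, which gave 5 libraries per group and 20 libraries in all. Each library is thus a mean of 3 mice, so single mice may vary more than the libraries do. The labels name no strain, genotype or batch.

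In the MAP kinase cascade, a growth factor receptor activates Ras, and Ras passes the signal through the kinases Raf and MEK to ERK. ERK switches on early-response genes, and several of those genes encode proteins that shut the cascade down again. DUSP proteins remove phosphates from MAP kinases, while Sprouty and SPRED proteins act upstream, around Ras and Raf. The RNA of many of these genes is short-lived, so their levels are often read as a sign of recent signalling in neurons.

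The promoters of Dusp1 and Dusp5 are shown because these are textbook early-response genes and, in the data below, the pair varied together across libraries. Both sequences are the 250 bases before the RefSeq start of the gene on GRCm38.p6, read 5′ to 3′ on the gene's strand. The Dusp1 sequence is chr17:26508473-26508722, minus strand, and its capitals mark a cyclic AMP response element (CRE), TGACGTCA, that begins 143 bases before the start. The Dusp5 sequence is chr19:53528895-53529144, plus strand, and its capitals mark 2 adjacent CArG boxes, the motif of serum response factor, that begin 82 and 72 bases before the start.
Dusp1: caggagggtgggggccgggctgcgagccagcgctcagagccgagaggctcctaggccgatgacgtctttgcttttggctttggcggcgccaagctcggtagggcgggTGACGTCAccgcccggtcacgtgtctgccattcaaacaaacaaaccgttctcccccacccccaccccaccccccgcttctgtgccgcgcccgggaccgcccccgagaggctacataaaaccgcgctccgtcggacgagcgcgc
Dusp5: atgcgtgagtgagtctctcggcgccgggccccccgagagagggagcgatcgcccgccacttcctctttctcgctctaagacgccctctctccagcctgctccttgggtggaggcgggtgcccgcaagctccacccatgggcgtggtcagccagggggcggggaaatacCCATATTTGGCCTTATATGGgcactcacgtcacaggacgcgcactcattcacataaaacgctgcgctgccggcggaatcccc

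RefSeq promoter windows, which run from 250 bases before to 50 after the start, were found for 8 of the 10 genes, without Dusp4 and Spry4. Each motif was searched on both strands. The full CRE was found in 1 of the 8 windows, against 1.79% of all 32851 windows of the table. The CArG box was found in 1 of the 8, against 1.63% of all windows. The AP-1 motif TGANTCA (7.81% of all windows) and the ETS motif CCGGAAGT (3.89%) had no match in the 8 windows. These are matches of letters and say nothing about binding.

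Total counts per library ran from 2707881 (female control 4) to 33595388 (male stressed 4). All 14 markers fixed for GABAergic neurons of the extended amygdala were present, and none was at 0 in any group. The markers of striatal neurons, a neighbouring tissue, were also present, all 14 of 14. In CPM (counts-per-million, after TMM normalization), their summed level spanned 3101 to 5510 for female controls and 3006 to 6214 for stressed females. It spanned 2953 to 3700 for male controls and 4155 to 6236 for stressed males. In such bulk tissue, fewer cells of a type and less RNA per cell cannot be told apart.

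Per length, Spred1 was the most abundant of the 10 genes. Levels are given as CPM divided by the length of the gene's merged exons in kilobases, averaged over the 20 libraries. Spred1, which holds Ras and Raf in check at the membrane, stood at 45.7 ± 3.12 CPM per kilobase (SD), and its lowest library (40.1) lay above the highest library of every other member. Spry2 (19.4 ± 3.07), Dusp14 (16.9 ± 2.90) and Spred2 (14.6 ± 1.13) followed, with overlapping ranges. Dusp6, a cytoplasmic phosphatase selective for ERK, stood at 8.49 ± 1.03 and Dusp1 at 5.53 ± 0.797. The ranges of all 20 libraries separated Spred2, with a minimum of 12.8, from Dusp6, with a maximum of 10.4. Spry1 (3.88 ± 0.530), Spry4 (3.63 ± 0.513) and Dusp4 (3.27 ± 0.567) overlapped, and Dusp5, a nuclear phosphatase selective for ERK, was lowest at 2.23 ± 0.418. The order was the same in female controls, stressed females and stressed males. In male controls Spry4 stood above Spry1, at 4.17 against 3.47 CPM per kilobase.

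The members also differed in how much they varied. Over the 20 libraries the coefficient of variation of the CPM was 6.83% for Spred1 and 7.76% for Spred2, and lay between 12.1% (Dusp6) and 18.7% (Dusp5) for the other 8. Counts per library ran from 796 to 11109 for Spred1 but from 13 to 212 for Dusp5 and from 15 to 344 for Dusp4. In the shallowest library counting error alone was 27.7% for Dusp5 and 25.8% for Dusp4. That library could therefore show only large differences in these 2 genes.

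**Figure D1:**
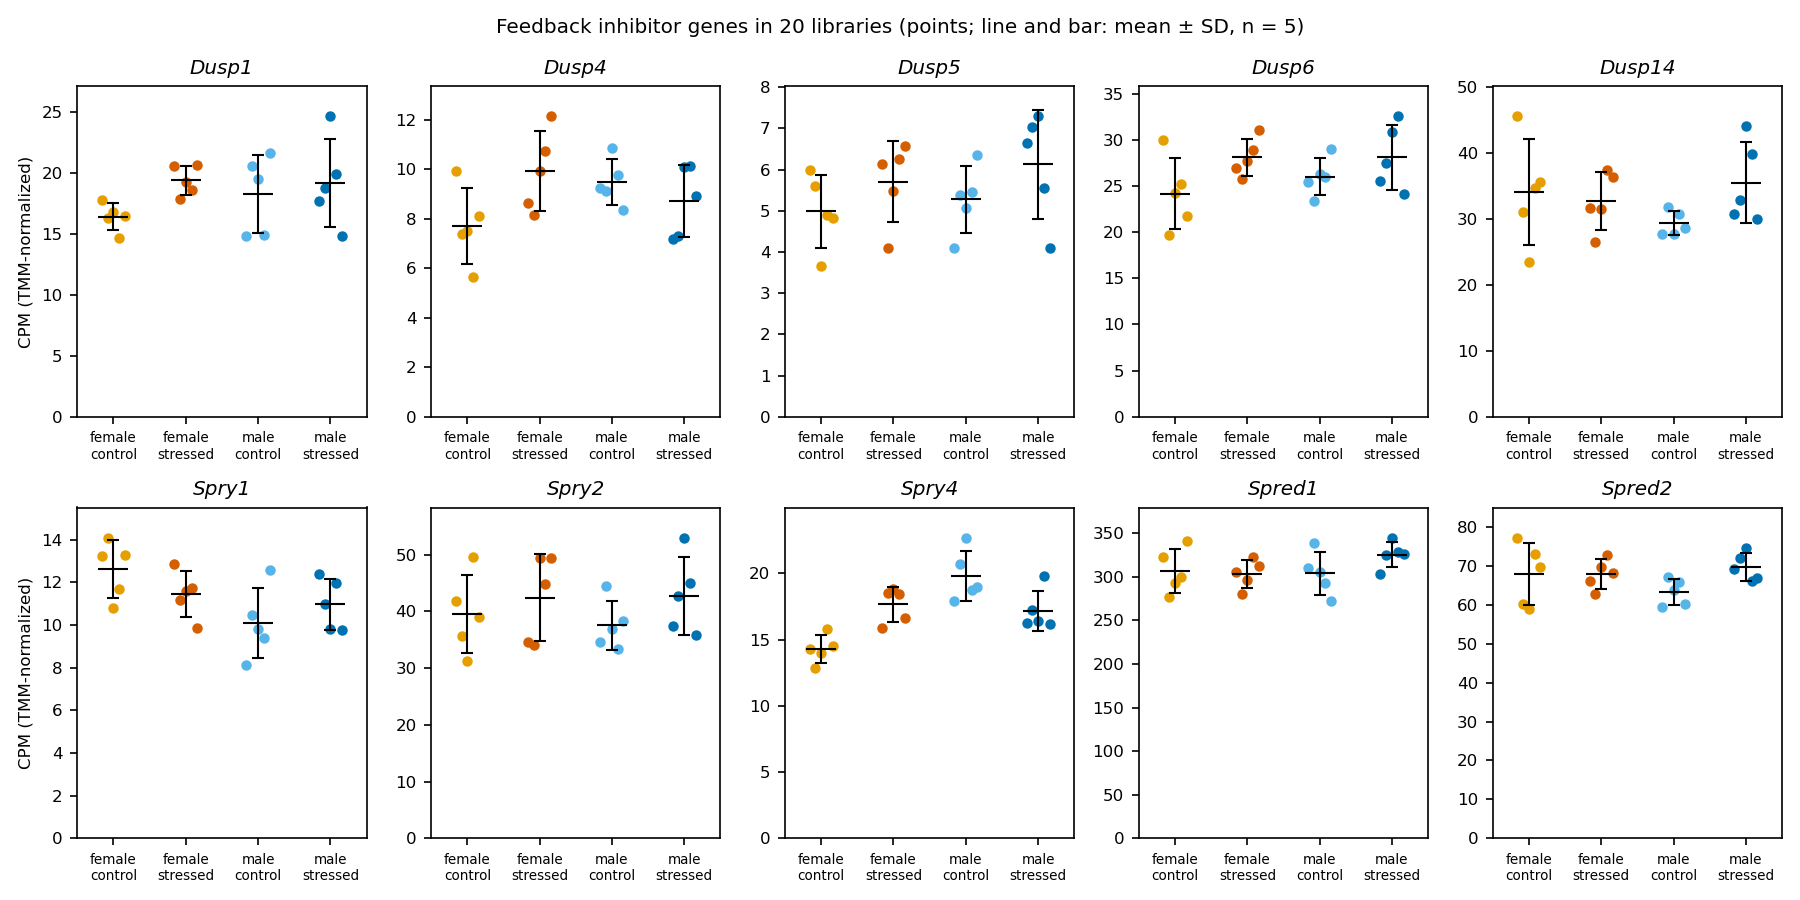
TMM-normalized CPM of each of the 10 genes (vertical axis, from 0) in the 5 libraries of each group (points), with the group mean and SD (line and bars). Spry4 is lowest in the 5 female controls, which lie between 12.9 and 15.8 CPM, all below the other 15 libraries.

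Spry4 was higher in control males than in control females, without overlap. It encodes a Sprouty protein that restrains Ras activation after growth factor stimulation. Female controls held 14.3, 12.9, 13.98, 15.8 and 14.5 CPM in replicates 1 to 5. Male controls held 17.9, 20.7, 22.7, 18.7 and 19.0 CPM. Every male control library lay above every female control library. Control means were 14.3 ± 1.06 CPM for females and 19.8 ± 1.91 CPM for males (SD, n = 5 each). The log2 fold change, male minus female, was 0.48 (SE 0.08), a fold of 1.39, with an adjusted p of 0.00425 in edgeR's quasi-likelihood test with Benjamini-Hochberg adjustment over all 12988 genes.

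Of the 10 members 1 was called for sex in controls at an adjusted p under 0.05, Spry4, where 0.747% of all genes were called. Groups that do not overlap in CPM were found for 1 member, Spry4, against 3.97% of all genes. At an unadjusted edgeR p under 0.05 there were 2 of 10, Spry1 and Spry4, against 15.3% of all genes. By p, Spry4 ranked 18 of 12988. The call held with each of the 20 libraries left out, with an adjusted p from 0.00182 to 0.0204. Markers of endothelial cells differed the other way from Spry4 and were lower on average in control males. Their score (mean log2 CPM of 10 of 10 markers, centred) averaged 0.0933 ± 0.0652 in female controls and -0.0924 ± 0.0752 in male controls, without overlap. Their summed level spanned 300.0 to 338 CPM among female controls and 276 to 309 CPM among male controls, with overlap, and no marker was at 0. With the endothelial score as a covariate the difference in Spry4 was 0.52, with an adjusted p of 0.332. In that fit 8 of all genes were called in place of 97. The score of the GABAergic extended amygdala markers also separated the control groups, at -0.0097 ± 0.0578 in females and 0.126 ± 0.0357 in males. That score was not fitted as a covariate. Over the alternatives the adjusted p ran from 0.000198 to 0.332.

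Stressed mice of both sexes held intermediate amounts of Spry4. Stressed females had 15.9, 18.5, 18.8, 18.5 and 16.6 CPM, a mean of 17.7 ± 1.33 (SD, n = 5). All 5 lay above the 5 female controls, but by a narrow gap, 15.86 CPM in female stressed 1 against 15.81 CPM in female control 4. Female control 4 is the shallowest library, with 42 counts of Spry4 and a counting error of 15.4%. Stressed males had 16.2, 17.3, 16.4, 19.8 and 16.2 CPM, a mean of 17.2 ± 1.52, and overlapped the male controls. The stress difference in Spry4 was 0.33 (SE 0.08) in females, with an unadjusted edgeR p of 0.000406 and an adjusted p of 0.377. It was -0.18 (SE 0.08) in males, with an adjusted edgeR p of 0.242. Neither passed the threshold. Between stressed males and stressed females Spry4 differed by -0.038 (SE 0.08), with an adjusted edgeR p of 0.954.

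Whether the stress difference in Spry4 depended on sex was asked with the interaction, the male minus the female stress difference. It was -0.52 (SE 0.11), with an adjusted edgeR p of 0.136, and ranked 11 of 12988 by p. It did not pass. DESeq2 gave an adjusted p of 0.0380, under the threshold, and over the alternatives the adjusted p ran from 0.0380 to 1.00. The sex difference in controls, the stress differences and the interaction share the control libraries, so they are not separate lines of evidence.

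**Figure D2:**
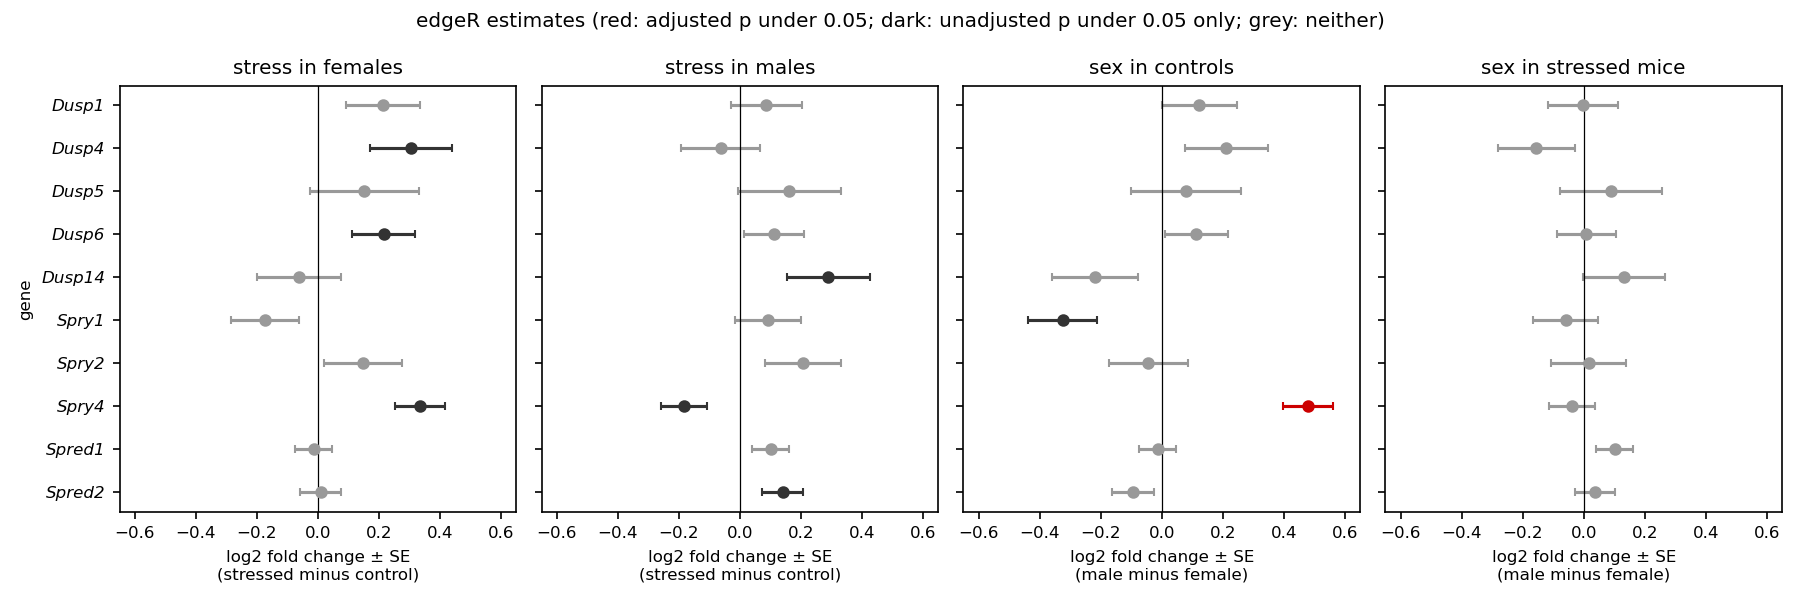
Log2 fold change (horizontal axis, point) and its SE (bar) from edgeR for the 10 genes in 4 comparisons. The value of 0.48 for Spry4 between control males and females is the single one with an adjusted p under 0.05 (red), and dark points have an unadjusted p under 0.05 alone.

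Spry1 went the other way from Spry4 in controls, without passing the test. Spry1 encodes another Sprouty inhibitor of receptor signalling, known for its role in limiting growth factor signals during development. Female controls held 13.3, 14.1, 10.8, 11.7 and 13.3 CPM and male controls 8.14, 10.5, 9.84, 9.41 and 12.6 CPM. The groups overlapped through male control 5. The difference, male minus female, was -0.32 (SE 0.11), with an unadjusted edgeR p of 0.00870 and an adjusted p of 0.165. Stressed females ranged from 9.86 to 12.9 CPM and stressed males from 9.78 to 12.4 CPM, and both groups overlapped with both control groups.

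Spry2, the most abundant of the 3 Sprouty genes per length, did not separate the groups. Its means were 39.5 ± 6.91 CPM in female controls, 42.5 ± 7.65 in stressed females, 37.6 ± 4.35 in male controls and 42.8 ± 6.84 in stressed males (SD, n = 5 each). The spread within a group was wide, from 31.3 to 49.7 CPM in female controls and from 35.8 to 53.0 CPM in stressed males. No comparison of Spry2 had an unadjusted p under 0.05.

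Spred1 and Spred2 had the smallest coefficient of variation of the 10 over the 20 libraries, a measure that includes differences between groups. Within groups and beyond counting error, the variation estimated by edgeR was lowest for Spry4 (6.81%), followed by Spred1 (7.05%) and Spred2 (7.25%). Spred1 averaged 307 ± 25.4 CPM in female controls, 304 ± 16.0 in stressed females, 304 ± 24.5 in male controls and 326 ± 14.8 in stressed males. Its groups overlapped in each comparison. Spred2, the close relative of Spred1, held 59.5, 67.3, 63.8, 65.9 and 60.3 CPM in male controls and 69.2, 71.9, 74.5, 66.1 and 66.9 CPM in stressed males. The stress difference of Spred2 in males was 0.14 (SE 0.07), with an unadjusted edgeR p of 0.0474 and an adjusted p of 0.316. Female controls spanned 59.0 to 77.3 CPM of Spred2, a range that took in the male controls and stressed males.

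Among the phosphatases, Dusp1 separated stressed from control females by a narrow gap. Dusp1 (MKP-1) encodes a nuclear phosphatase for p38, JNK and ERK, and is known to be induced by neuronal activity and by glucocorticoids. Female controls held 17.8, 16.3, 16.8, 14.7 and 16.4 CPM, and stressed females held 20.5, 17.9, 19.3, 18.6 and 20.7 CPM. Exons of Dusp1 overlap Ergic1 on the opposite strand, and the strand setting of the counting is not given in the sources used here, so the counts are uncertain. The lowest stressed library (17.9) lay just above the highest control (17.8). The difference was 0.21 (SE 0.12), with an adjusted edgeR p of 0.716. In males both groups were wider, from 14.9 to 21.6 CPM in controls and from 14.8 to 24.7 CPM in stressed males, and they overlapped throughout.

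Dusp4 and Dusp6 were higher on average in stressed than in control females, and neither passed the test. Dusp4 encodes a nuclear phosphatase for ERK and JNK. It held 9.95, 7.38, 7.51, 5.65 and 8.10 CPM in female controls and 8.65, 8.16, 9.95, 10.8 and 12.2 CPM in stressed females. The groups overlapped, and the lowest value was that of the shallowest library, with 15 counts. The difference in Dusp4 was 0.30 (SE 0.13), with an unadjusted edgeR p of 0.0328 and an adjusted p of 0.637. Dusp6 held 30.0, 19.7, 24.2, 25.2 and 21.8 CPM in female controls and 26.9, 25.8, 27.7, 28.9 and 31.1 CPM in stressed females. The overlap in Dusp6 came from female control 1, and its difference was 0.21 (SE 0.10), with an adjusted edgeR p of 0.662. Markers of oligodendrocytes differed in the same comparison: 0 of 14 were higher in stressed females, 9 of 14 had an unadjusted edgeR p under 0.05 and 0 were called, with a median difference of -0.26. Their summed level spanned 9605 to 13849 CPM in control and 9015 to 11087 CPM in stressed females, and none was at 0. With the oligodendrocyte score as a covariate the difference was 0.18 for both Dusp4 and Dusp6, with adjusted edgeR p-values of 0.874 and 0.853. In males Dusp4 averaged 9.48 ± 0.924 CPM in controls and 8.73 ± 1.44 in stressed mice, and Dusp6 26.0 ± 1.99 and 28.1 ± 3.54.

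Dusp5 and Dusp14 overlapped between groups in each comparison. Dusp5 spanned 3.65 to 5.98 CPM in control and 4.09 to 6.56 CPM in stressed females, and 4.11 to 6.35 CPM in control and 4.09 to 7.30 CPM in stressed males. Dusp14, a small phosphatase without the kinase-binding domain of the larger MKPs, held 27.8, 31.8, 27.8, 30.7 and 28.6 CPM in male controls and 30.7, 32.8, 44.1, 39.8 and 30.0 CPM in stressed males. Stressed males 3 and 4 were the high ones. The stress difference of Dusp14 in males was 0.29 (SE 0.14), with an unadjusted edgeR p of 0.0447 and an adjusted p of 0.310. Markers of striatal neurons moved with it, with a score of -0.397 ± 0.135 in male controls and 0.171 ± 0.265 in stressed males, and 14 of 14 of them were higher in stressed males. With the striatal score as a covariate the difference was -0.079 for Dusp14 and -0.019 for Spred2.

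For stress in females 0 of 10 were called at an adjusted p under 0.05 by edgeR, DESeq2 or limma-voom, where edgeR called 0% of all genes. At an unadjusted p under 0.05 edgeR gave 3 of 10 (Dusp4, Dusp6 and Spry4, all higher in stressed females), where 7.51% of all genes reached that level and 3.69% of all genes did so as higher. Groups that do not overlap were found for 2 of 10 (Dusp1 and Spry4, both by a narrow gap), against 1.22% of all genes. The median difference of the 10 was 0.15, and that of all genes -0.0011.

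For stress in males 0 of 10 were called by edgeR or limma-voom, where edgeR called 0.0077% of all genes. DESeq2 called none either, but gave no adjusted p for 3 of them (Dusp4, Dusp5 and Spry1). At an unadjusted p under 0.05 edgeR gave 3 of 10 (Dusp14 and Spred2 higher, Spry4 lower), against 15.5% of all genes. None of the 10 had groups that do not overlap, against 4.3% of all genes. The median difference was 0.11 for the members and -0.0067 for all genes. Of the members above 0, Dusp1, Dusp5, Dusp6, Dusp14, Spry2, Spred1 and Spred2 fell below 0 in at least 1 of 30 alternatives. For stress averaged over the sexes 0 of 10 were called by edgeR, DESeq2 or limma-voom, against 0% of all genes in edgeR. At an unadjusted p under 0.05 there was 1, Dusp6, at 0.16 (SE 0.07) with an adjusted edgeR p of 0.348, where 12.7% of all genes reached that level. In this average 9 of 10 members were above 0, all but Spry1, against 46.9% of all genes. Several members varied together across libraries, so these signs are not separate. Dusp4, Dusp5, Dusp14, Spry2, Spred1 and Spred2 fell below 0 in 1 of 29 alternatives each, the lowest being Dusp14 at -0.082. With 1 library left out these genes stayed above 0, so their signs changed under other settings. Dusp1, Dusp6 and Spry4 stayed above 0 throughout. Of the striatal neuron markers 14 of 14 were higher in this average, with a median difference of 0.34. At an unadjusted edgeR p under 0.05 there were 13 of them, and 0 were called. The striatal score was also fitted as a covariate for this average, and edgeR then called 0 of all genes. The part of these markers was not tested beyond that fit.

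Between stressed males and stressed females 0 of 10 members were called by edgeR, DESeq2 or limma-voom, where edgeR called 0.077% of all genes. None of the 10 had an unadjusted edgeR p under 0.05 either, against 7.06% of all genes, none had groups that do not overlap, against 1.27%, and differences ran from -0.16 (Dusp4) to 0.13 (Dusp14). In the interaction 0 of 10 were called by edgeR, where it called 0% of all genes, 0 by limma-voom and 1, Spry4, by DESeq2. At an unadjusted p under 0.05 edgeR gave 1 of 10, Spry4, against 10.4% of all genes. The median absolute interaction was 0.13 for the members and 0.10 for all genes.

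Several members varied together across libraries. Pearson correlations of log2 CPM over the 20 libraries were computed for all 45 pairs, with permutation p-values from 100000 resamples and Benjamini-Hochberg adjustment over the pairs. Of these, 8 had an adjusted permutation p under 0.05, all positive. The 3 highest were those among Dusp14, Spry2 and Spred2. Such r were not particular to the members, and the share of passing pairs over all genes was not computed. In the 8 pairs, the share of the 12987 other genes with a higher r to a member than its partner ran from 0.277% to 5.66%. The lowest was for Dusp1 with partner Dusp5 and the highest for Spred2 with partner Spred1. Dusp14 and Spred2 had r 0.811 (rho 0.792, permutation p 3e-05, adjusted 0.00135), and r was 0.716 without the 2 libraries farthest from the median, female control 1 and male stressed 3. Dusp14 and Spry2 had r 0.722 (rho 0.774, permutation p 0.00028, adjusted 0.0063), and 0.736 without the same 2 libraries. Spry2 and Spred2 had r 0.702 (rho 0.756, permutation p 0.00073, adjusted 0.0109), and 0.621 without female control 4 and male stressed 3.

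Among the larger phosphatases 2 pairs passed, both with Dusp1. Dusp1 and Dusp5, whose promoters are printed above, had r 0.635 (rho 0.597, permutation p 0.00252, adjusted 0.0252), and 0.566 without female control 4 and male stressed 3. Dusp1 and Dusp6 had r 0.573 (rho 0.654, permutation p 0.00805, adjusted 0.0453), and 0.526 without the same 2 libraries. Dusp5 and Dusp6 had r 0.488 (rho 0.626, adjusted permutation p 0.0896 for r and 0.0254 for rho). Dusp4 and Dusp6 had r 0.546 (rho 0.629, adjusted permutation p 0.0570 for r and 0.0254 for rho), and 0.556 without female control 4 and female stressed 5. Dusp5 and Dusp14 had r 0.620 (rho 0.543, permutation p 0.00345, adjusted 0.0252), and 0.500 without female control 3 and male stressed 5. For the 6 pairs so far that passed, r of the deviations from group means lay between 0.439 (Dusp1 and Dusp6) and 0.774 (Dusp14 and Spred2). The remaining 2 pairs held Spred1, with r 0.614 to Dusp14 (rho 0.645, adjusted permutation p 0.0252) and r 0.619 to Spred2 (rho 0.552, adjusted permutation p 0.0252). Without the 2 farthest libraries these were 0.540 and 0.502. Spry1, Spry4 and Dusp4 had no pair with an adjusted permutation p of r under 0.05. Between Spry1 and Spry4 r was -0.456, the lowest of the 45.

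**Figure D3:**
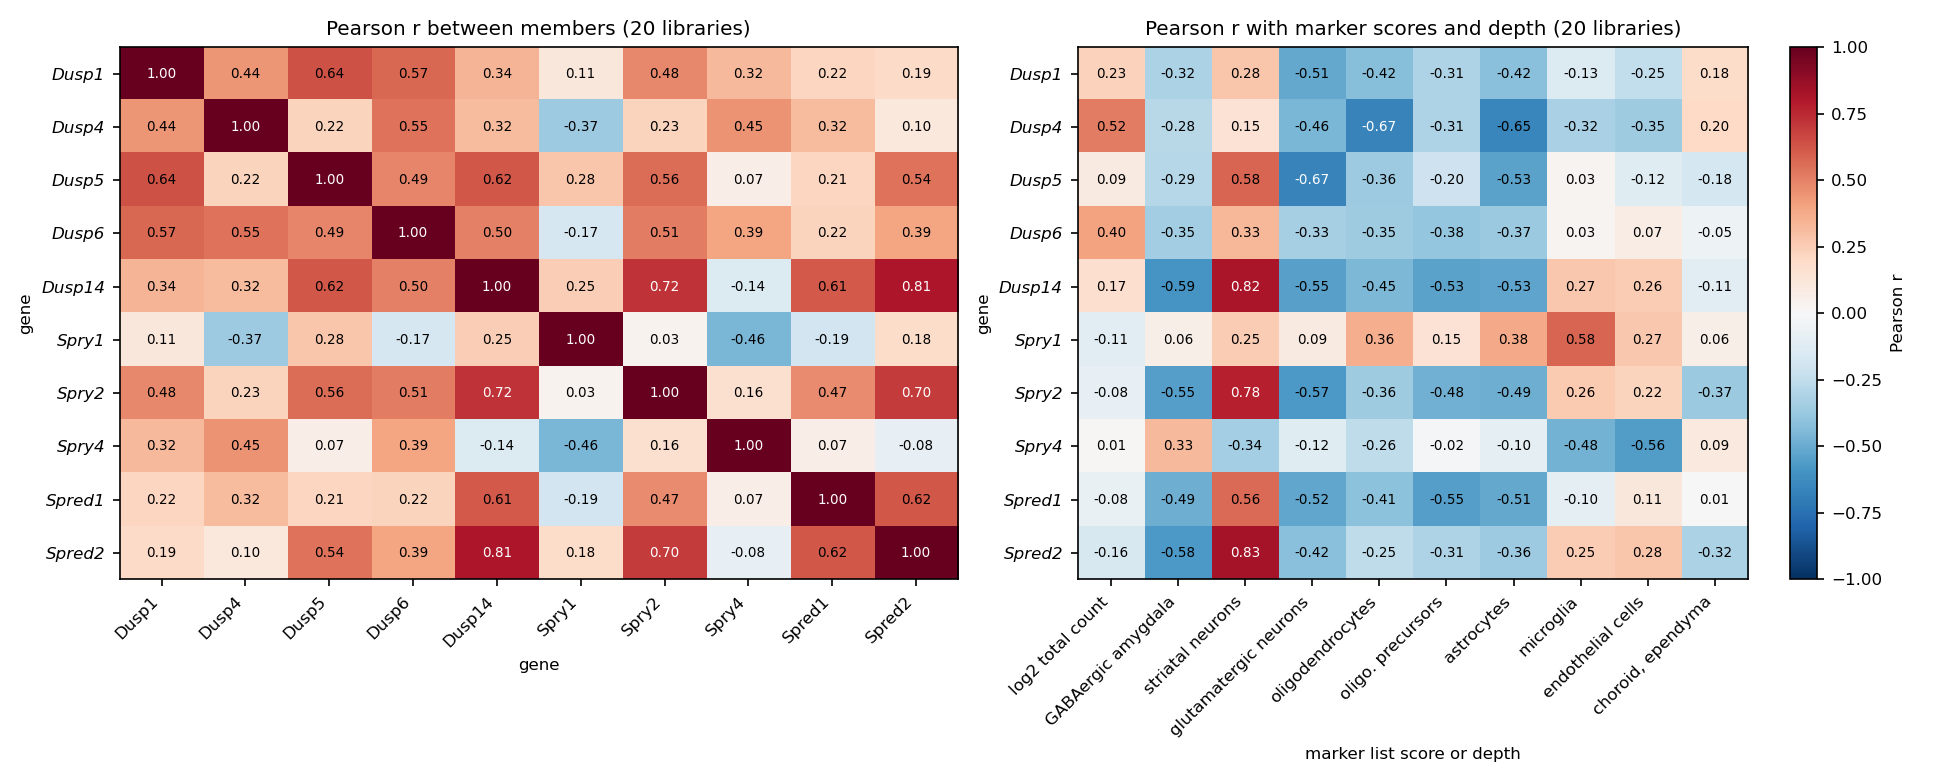
Pearson r over the 20 libraries between the 10 genes (left) and between each gene and the marker list scores or the log2 total count (right), with color from -1 (blue) to 1 (red). The r of 0.811 between Dusp14 and Spred2 is the highest between members, and the striatal score has r 0.816 with Dusp14, 0.780 with Spry2 and 0.829 with Spred2.

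Levels of Dusp14, Spry2 and Spred2 tracked the markers of striatal neurons. Relations of the 10 members with 9 marker scores and the log2 total count made 100 tests, of which 6 had an adjusted permutation p under 0.05. The share of passing relations over all genes was not computed, so these relations are not shown to be particular to the members. The striatal score had r 0.829 with Spred2 (rho 0.854, permutation p 2e-05, adjusted 0.0020), r 0.816 with Dusp14 (rho 0.854, permutation p 5e-05, adjusted 0.0025) and r 0.780 with Spry2 (rho 0.761, permutation p 0.0001, adjusted 0.00333). Without the libraries farthest from the median, female stressed 5 and male stressed 3, these were 0.860, 0.786 and 0.695. The r of deviations from group means were 0.794, 0.818 and 0.825.

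Dusp4 moved against the markers of oligodendrocytes and astrocytes. Its r was -0.669 with the oligodendrocyte score (rho -0.716, permutation p 0.00122, adjusted 0.0244) and -0.649 with the astrocyte score (rho -0.708, permutation p 0.00208, adjusted 0.0347). They were -0.703 without female control 3 and male control 5, and -0.725 without female stressed 2 and male stressed 3. Other glial scores did not pass for Dusp4: microglia (r -0.324, adjusted permutation p 0.328) and oligodendrocyte precursors (r -0.306, adjusted permutation p 0.344). With the log2 total count Dusp4 had r 0.515 (adjusted permutation p 0.0904). Dusp5 had r -0.666 with the score of thalamic and other glutamatergic neurons (rho -0.573, permutation p 0.00086, adjusted 0.0215), and -0.465 without female control 3 and female stressed 2, so that its size rested in part on those 2 libraries. Spry4 had r -0.560 with the endothelial score (rho -0.565, permutation p 0.0103, adjusted 0.0739) and r -0.336 with the striatal score (rho -0.320, adjusted permutation p 0.317). For the deviations from group means the r of Spry4 with the endothelial score was 0.208. The part of these markers in the group differences was not tested beyond the covariate fits given above.

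**Figure D4:**
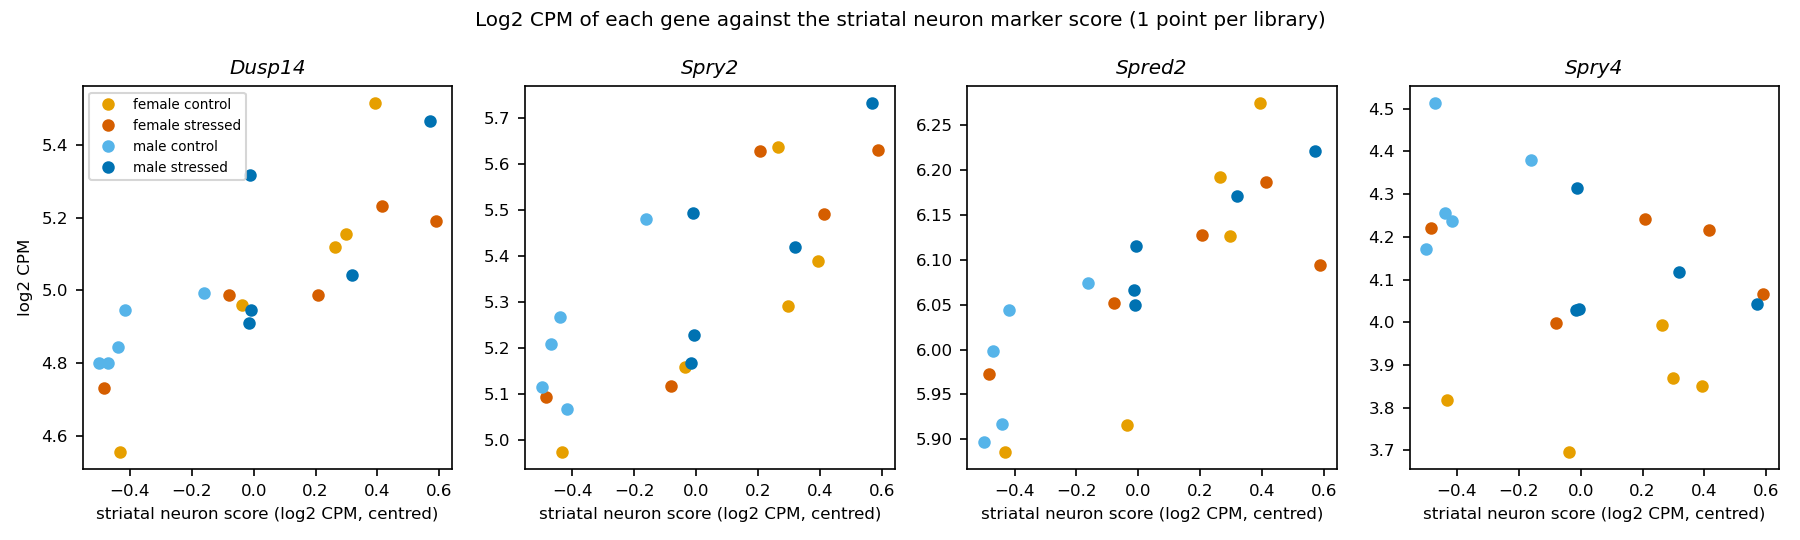
Log2 CPM of Dusp14, Spry2, Spred2 and Spry4 (vertical axes) against the striatal neuron marker score (horizontal axis, log2 CPM centred on 0), with 1 point per library colored by group. The first 3 genes climb with the score (r 0.816, 0.780 and 0.829), while for Spry4 r is -0.336. The female controls lie low in Spry4 across their own scores, which run from -0.432 to 0.393.

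The genes outside the set whose log2 CPM was most like that of a member over the 20 libraries differed by member. For each member the 2 genes with the highest Pearson r of all genes outside the set were taken, so these r are a description. Dusp1 was most like the activity-regulated genes Arc (r 0.849) and Junb (r 0.812), and Dusp5 like Junb (r 0.865) and Tfe3 (r 0.841). Dusp6 had Opa3 (r 0.733) and the immediate-early gene Nr4a1 (r 0.706). Dusp14 had Rem2 (r 0.900) and the immediate-early gene Egr3 (r 0.894), Spry2 had Sbk1 (r 0.910) and Rasl10b (r 0.906), and Spred2 had B3gnt2 (r 0.868) and Ddit4l (r 0.868). Dusp4 had Cdk8 (r 0.823) and Ints13 (r 0.821), Spred1 had Actr2 (r 0.833) and Ccng2 (r 0.832), and Spry1 had St3gal3 (r 0.785) and Crtac1 (r 0.782). Of the genes given here, Spry4 was most like Mfhas1 (r 0.854).

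The cascade around the members, and genes induced by glucocorticoids, were described with 10 lists of other genes, 141 measured genes in all. In the comparison of control males and females edgeR called 6 of the 141, 4.26%, where it called 0.747% of all genes. Of these calls 5 came from the glucocorticoid list, which is not part of the cascade. The lists were chosen with earlier results of these data known, so the share is a description and not a test. None was a receptor (0 of 15), a ligand (0 of 11), or a kinase or regulator of the Raf, MEK and ERK cascade (0 of 12). None was a p38, JNK or ERK5 pathway kinase (0 of 12) or a nuclear or kinase effector (0 of 12). The other dual-specificity phosphatases (0 of 15), other feedback inhibitors (0 of 11) and other ERK-induced genes (0 of 15) had no call either. The adaptors and Ras regulators had 1 of 22, lower in males: Rasgrp1, a diacylglycerol-activated exchange factor that loads Ras, at 434 ± 58.1 CPM for control females and 295 ± 29.0 CPM for control males (-0.55, SE 0.13, adjusted edgeR p 0.0400). The call was lost with limma-voom (adjusted p 0.0528) and when 1 of 9 libraries was left out: female control 1, 4 or 5, any of the 5 male controls, or female stressed 3. Markers of striatal neurons moved with Rasgrp1: 0 of 14 were higher in control males, 12 of 14 had an unadjusted edgeR p under 0.05, and the median difference was -0.51. With the striatal score as a covariate the difference in Rasgrp1 was -0.20 (adjusted edgeR p 0.109).

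The other 5 calls were among 17 glucocorticoid-induced genes, all higher in males. They were Sgk1, a kinase (1.06, SE 0.16, adjusted edgeR p 0.00162), Tsc22d3 (0.64, SE 0.10), Arrdc2 (0.64, SE 0.11), the repressor Bcl6 (0.45, SE 0.08) and Ddit4, an mTOR inhibitor (0.48, SE 0.10). With the endothelial score, which separated the control groups, as a covariate, none of the 5 was called, and their differences lay between 0.38 (Bcl6) and 1.16 (Sgk1) with adjusted edgeR p-values of 0.128 to 0.958. Other markers differed between the control groups too. Of the GABAergic markers 10 of 14 were higher in males, 5 had an unadjusted edgeR p under 0.05 and 1 was called. Of the microglia markers 1 of 11 was higher in males, 6 had an unadjusted edgeR p under 0.05 and 0 were called. Neither score was fitted as a covariate. Ddit4 was also not called by limma-voom (adjusted p 0.0528), with the striatal score as a covariate (adjusted edgeR p 0.0609), or without female control 1, female control 5, male control 2 or male control 3. Sgk1, Tsc22d3, Arrdc2 and Bcl6 were called with each of the 20 libraries left out. Dusp1, the member known as a glucocorticoid target, differed in this comparison by 0.12 (SE 0.12, adjusted edgeR p 0.693). The median difference was 0.32 for these 17 genes, 0.03 for the 10 members and near 0 for all genes.

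With stress edgeR called none of the 141 in females, where 14 (9.93%) had an unadjusted p under 0.05 against 7.51% of all genes, and limma-voom and DESeq2 called none. In males 31 (22.0%) had an unadjusted edgeR p under 0.05, against 15.5% of all genes. In males 1 of the 141 (0.709%) was called: Arrdc2, at 14.2 ± 2.53 CPM in controls and 8.64 ± 0.852 CPM in stressed mice (-0.71, SE 0.10, adjusted edgeR p 0.00851). It was also the only gene called of all 12988 (0.0077%), so both shares rest on the same gene. Its list was chosen with earlier results of these data known. Arrdc2 was not called with the striatal (adjusted edgeR p 0.0888) or the endothelial score (adjusted edgeR p 0.752) as a covariate, and DESeq2 gave it no adjusted p. The count of the 141 called was 0 without male stressed 3 or male stressed 4, where 0 of all genes were called. It was 2 without male control 1 (3 of all genes), 4 without male stressed 5 (129 of all genes) and 6 without female stressed 2 (232 of all genes). The genes closest to the threshold in males on the other lists included Rasgrp1 (0.51, SE 0.13, adjusted edgeR p 0.0871), the p38 kinase Mapk11 (-0.53, SE 0.13, adjusted edgeR p 0.0871) and Tgfa, a ligand of the EGF receptor (0.46, SE 0.13, adjusted edgeR p 0.107). Errfi1, a feedback inhibitor of the EGF receptor, differed by -0.23 (SE 0.07, adjusted edgeR p 0.107). Among other dual-specificity phosphatases the smallest p with stress belonged in females to Dusp16 (-0.36, SE 0.11, adjusted edgeR p 0.565) and in males to Dusp8 (0.20, SE 0.07, adjusted edgeR p 0.158), both JNK and p38 phosphatases. Of the other ERK-induced genes the smallest p belonged in females to Nr4a1 (0.48, SE 0.23, adjusted edgeR p 0.666) and in males to Etv4 (-0.35, SE 0.11, adjusted edgeR p 0.128).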

How the data were processed

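Poly(A) RNA libraries were made with a stranded kit per the labels' protocols. STAR, featureCounts and the build mm10 are named in the submitters' processing notes; versions, annotation and strand setting are not given in the sources used here. The values deposited are raw read counts for 12988 gene symbols in 20 libraries; the lowest row total was 1002. All 20 columns were mapped to groups by label, and 0 columns were left over. Exons of Dusp1, Dusp5 and Spry1 overlap a gene on the opposite strand in GENCODE M21 (Ergic1, AC137853.2 and Gm42922), so their counts are uncertain.

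The quasi-likelihood test of edgeR 4.0.16 (R 4.3.3) was run with TMM factors and a mean per group. P-values are two-sided, adjusted by Benjamini-Hochberg over all genes, with a threshold of 0.05. CPM used TMM factors and log2 CPM a prior count of 2. The 6 comparisons were stress in each sex, sex in controls and in stressed mice, their interaction and the average stress difference. Exon lengths came from GENCODE M21 and promoters from RefSeq (GRCm38.p6). Pathway genes named are the calls (at most 6 per list and comparison), or the gene with the smallest p of a list without calls; for each member, the 2 other genes of highest Pearson r are named. Some genes that this rule names are not reported here. Alternatives were DESeq2 1.42.0, its size factors, limma-voom (limma 3.58.1), filterByExpr (which kept all 12988 genes), only the groups compared, a replicate block, marker covariates and leaving out libraries. The test was tried on simulated data. The members and lists were chosen with earlier results of these data known.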

Additional observations from a re-analysis of the deposited data

How the results depend on the processing

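The count of members called stayed at 1 for sex in controls and at 0 in the other 5 comparisons under the alternatives run, with 2 exceptions: it was 0 for sex in controls with the endothelial score as a covariate, an alternative chosen after seeing the data, and 1 for the interaction with DESeq2. In males the stress difference of Dusp14 turned to -0.079 and that of Spred2 to -0.019 with the striatal score as a covariate; the cause was not tested. Of the other 48 member values, 27 changed sign under at least 1 alternative and 0 became a call. Among them were the stress differences in males of Dusp5 (down to -0.25), Spry2 (-0.14) and Spred1 (-0.010). These 3 changed sign in 1 of 30 alternatives each, and not with 1 library left out. The count of correlated member pairs was 8, and 9 for deviations from group means. Replicate numbers did not pair the libraries: the deviations of same-numbered libraries correlated with r from -0.473 to 0.237, and 5 of 30 exceeded 0.1. With the replicate block Spry4 differed between control males and females by 0.47 (adjusted p 0.0118), and the count of members called was 1; Rasgrp1 and Ddit4 were then not called. Calls among the 141 listed genes moved more, and so did calls over all genes, whose counts follow in brackets. For stress in females the count was 1 with the striatal covariate (2 of all genes). For stress in males it was 2 with the oligodendrocyte covariate (9 of all genes), 0 with the endothelial one (0) and 7 with only the groups compared (305). It was 5 with DESeq2 (239), which gave 22 of the 141 no adjusted p, Arrdc2 among them. Without both female control 4 and female stressed 2, a choice made after seeing the data, it was 6 (182). With 1 library left out it was 0 to 6 (0 to 232). For sex in controls it was 11 with the striatal (72 of all genes) and 0 with the endothelial covariate (8). For the interaction it was 2 with DESeq2 size factors (3 of all genes), 1 with the striatal (1) and 3 with the oligodendrocyte covariate (15). It was 3 with DESeq2 (22), and 0 to 3 with 1 library left out (0 to 4). For the average stress difference it was 0 to 3 with 1 library left out, the 3 without female stressed 2 (150 of all genes). Depth limits Dusp4 and Dusp5 most, with 15 and 13 counts in female control 4.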
